A study of Mus musculus with 17 samples.

Results

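The 39 genes described here encode proteins that copy DNA in S phase or supply its nucleotides. They were chosen by symbol, for origin licensing, the replication fork, nucleotide supply and chromatin assembly, among the 31053 genes listed for 17 bulk RNA-seq libraries of mouse cardiac fibroblasts (CFs). All 39 were found, and all 39 passed the filter on low counts (at least 10 counts in at least 3 libraries), as did 14030 genes in all. The mice were C57BL/6, 8 to 10 weeks old, with the genotype Collagen1a1-GFP+, in which GFP is driven by the *Col1a1* promoter, and every animal had a myocardial infarction (MI) by ligation of the left anterior descending coronary artery. GFP+/CD31-/CD45- cells were sorted on each day from 1 to 6 days post-infarction (dpi), and each day has 3 libraries, except 3 dpi, which has 4, and 5 dpi, which has 1. The groups differ only in day by their labels, no uninjured heart is among them, and the sex of the mice and how many went into a library are not given in the sources used here. The comparisons therefore ask when in the first week the CFs raised and lowered the transcripts of the replication machinery.

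A cell that is to divide loads the MCM helicase onto origins in G1, where the origin recognition complex, Cdc6 and Cdt1 act together. At the start of S phase Cdc45 and the GINS complex turn the loaded helicase on, polymerases and the sliding clamp Pcna copy both strands, and ribonucleotide reductase and thymidylate synthase supply deoxynucleotides. Many of these genes are known targets of E2F transcription factors, and resting fibroblasts of the adult heart divide rarely until an injury.

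Total counts ranged from 8021815 to 22029938, so that 3 counts corresponded to 0.136 to 0.374 CPM (counts scaled to a common library total). Chi-square per degree of freedom was 23.03 to 229.67 in 18 replicate pairs, well above counting error, and the p-values measure the spread between these libraries, which may be technical in part. Fibroblast markers summed to 15750.43 to 49202.26 CPM in every library, while 8 endothelial markers summed to at most 94.58 CPM. Leukocyte markers (11 genes) summed to 41.14, 57.8, 236.91 and 248.54 CPM at 3 dpi, to 75.96 CPM at 5 dpi and to 9.84 to 36.01 CPM on the other days. *Cd3e* was at 0 throughout. Cardiomyocyte markers (6 genes) summed to 80.66 to 177.44 CPM at 6 dpi, 37.98 to 67.37 CPM at 4 dpi, 13.59 CPM at 5 dpi and at most 39.56 CPM before 4 dpi, and mural markers (6 genes) to at most 66.22 CPM at 1 and 2 dpi, 83.4 to 157.02 CPM at 3, 4 and 6 dpi and 188.04 CPM at 5 dpi. *Xist* exceeded the Y-linked genes in every library of 4 and 6 dpi and in replicate 1 of 1 dpi, and the reverse held in the other 10 libraries. A comparison of 4 or 6 dpi with 3 dpi therefore cannot be told apart from a sex-linked difference between libraries. The 3 dpi libraries are also described by names of another form than the rest, and what this reflects is not given. A difference between 3 dpi and any other day therefore cannot be told apart from a difference between these sets of libraries. Since these are bulk samples, fewer dividing cells and less RNA of these genes per cell cannot be told apart.

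The promoters of the members are shown first, because E2F words were more frequent in them than in promoters at large. RefSeq promoters on GRCm38.p6, from 250 bases before to 50 bases after the transcription start, were at hand for 31 of the 39 genes, with 36 promoters in all, and were missing for *Gins1*, *Gins2*, *Gins4*, *Gmnn*, *Mcm4*, *Pole*, *Prim2* and *Rfc2*. At least 1 of the E2F words TTTGGCGC, TTTCCCGC, TTTGCCGC and TTTCGCGC, on either strand, was found in 14 of 36 member promoters (38.9%) and in 744 of 32851 promoters of all genes (2.3%). TTTCGCGC alone was in 19.4% of member promoters and 0.3% of all promoters. The CCAAT box (CCAAT, either strand) was in 55.6% and 37.4%. The cell cycle homology words TTTGAA and TTCGAA, either strand, were in 16.7% and 19.2%, so that they were not more frequent among the members. The 250 bases before the start are given for the 6 members with the largest estimated changes from 1 to 3 dpi among those with a whole E2F word in these bases, 5′ to 3′ on the strand of the gene, with the E2F words in capitals. *Lig1*, *Mcm3* and *Cdt1* have larger estimates than some of these 6 but no whole E2F word before the start, and are not printed.
Orc1, chr4:108579204-108579453, plus strand: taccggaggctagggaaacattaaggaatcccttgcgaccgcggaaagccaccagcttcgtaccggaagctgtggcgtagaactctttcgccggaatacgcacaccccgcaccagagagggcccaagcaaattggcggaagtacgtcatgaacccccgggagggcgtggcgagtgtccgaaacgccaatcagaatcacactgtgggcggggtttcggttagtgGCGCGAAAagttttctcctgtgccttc
Gins3, chr8:95633309-95633558, plus strand: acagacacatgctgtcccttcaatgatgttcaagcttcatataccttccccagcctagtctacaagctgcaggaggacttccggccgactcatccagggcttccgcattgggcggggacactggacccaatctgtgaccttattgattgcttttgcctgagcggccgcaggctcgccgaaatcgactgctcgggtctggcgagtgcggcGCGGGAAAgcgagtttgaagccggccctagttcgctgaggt
Cdc6, chr11:98907901-98908150, plus strand: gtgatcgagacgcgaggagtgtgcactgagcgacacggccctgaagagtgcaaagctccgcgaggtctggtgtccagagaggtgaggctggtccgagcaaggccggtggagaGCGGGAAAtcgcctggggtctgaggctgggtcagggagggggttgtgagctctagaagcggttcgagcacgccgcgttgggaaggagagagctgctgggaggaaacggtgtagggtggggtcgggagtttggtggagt
Mcm7, chr5:138171884-138172133, minus strand: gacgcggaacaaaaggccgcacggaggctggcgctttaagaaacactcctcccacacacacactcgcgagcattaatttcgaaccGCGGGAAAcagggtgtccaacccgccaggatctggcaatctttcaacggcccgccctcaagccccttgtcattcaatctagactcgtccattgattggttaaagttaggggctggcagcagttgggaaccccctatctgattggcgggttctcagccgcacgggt
Pola1, chrX:93632156-93632405, minus strand: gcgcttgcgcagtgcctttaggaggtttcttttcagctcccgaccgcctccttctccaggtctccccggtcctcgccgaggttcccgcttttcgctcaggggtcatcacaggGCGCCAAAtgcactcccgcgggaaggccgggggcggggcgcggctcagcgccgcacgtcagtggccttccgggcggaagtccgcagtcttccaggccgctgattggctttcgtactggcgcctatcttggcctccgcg
Mcm6, chr1:128359706-128359955, minus strand: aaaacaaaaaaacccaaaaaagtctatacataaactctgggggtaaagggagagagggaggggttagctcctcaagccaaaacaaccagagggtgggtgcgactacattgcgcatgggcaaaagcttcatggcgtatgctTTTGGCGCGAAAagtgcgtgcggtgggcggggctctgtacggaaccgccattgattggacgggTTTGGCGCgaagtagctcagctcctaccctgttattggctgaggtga
A word read on the opposite strand appears as its reverse complement, as in *Orc1*, *Gins3*, *Cdc6*, *Mcm7* and *Pola1*. In *Mcm6*, 3 words were found, of which the first pair overlap as TTTGGCGCGAAA. Among the 31 members with a promoter at hand, those with an E2F word did not have the larger changes. From 1 to 3 dpi the median log2 fold change was 1.05 for the 14 genes with a word, of which 1 was called higher. It was 1.30 for the 17 genes without one, of which 8 were. *Gmnn*, *Gins1*, *Gins2* and *Pole*, also called higher, had no promoter at hand and are in neither group. A word is a match of letters, and no test was run on these counts.

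As a group the members were highest at 3 dpi. The level, in log2 CPM scaled to TMM-normalized library sizes, was averaged over the 39 genes in each library. This mean was 2.78, 3.61 and 3.03 at 1 dpi, 3.04, 2.98 and 3.55 at 2 dpi, and 4.65, 4.43, 4.00 and 4.47 at 3 dpi. It was 4.15, 4.02 and 3.32 at 4 dpi, 4.04 in the single library of 5 dpi, and 2.89, 2.57 and 3.12 at 6 dpi. Every 3 dpi library lay above every library of 1, 2 and 6 dpi, and 3 and 4 dpi overlapped. The members took 0.123 to 0.165% of all counts at 3 dpi, 0.0483 to 0.088% at 1 dpi and 0.0398 to 0.0566% at 6 dpi. By genes, 34 of the 39 had their highest daily mean at 3 dpi, *Gins4*, *Pola2*, *Rfc2* and *Chaf1a* had it at 4 dpi, and *Pole2* at 1 dpi. With the single 5 dpi library counted as a day, 28 peaked at 3 dpi and 9 at 5 dpi. The share of all genes with their highest mean at 3 dpi is not given here, so these peak counts alone do not set the members apart.

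**Figure D1:**
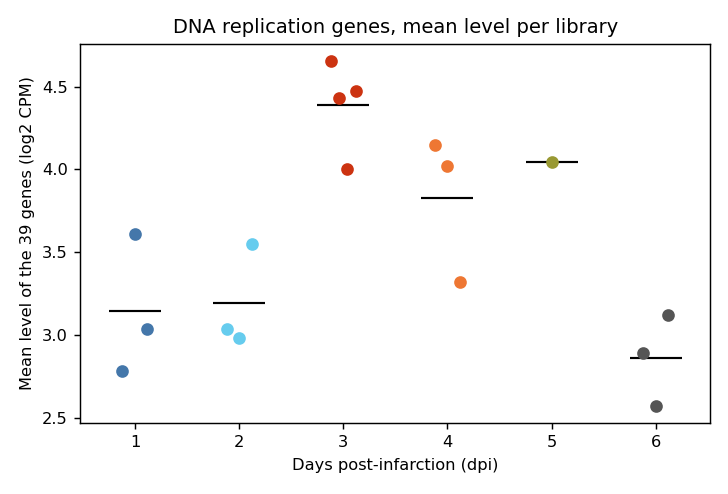
Mean level of the 39 DNA replication and nucleotide synthesis genes (log2 CPM, vertical axis) in each of the 17 libraries (points) by day after infarction (dpi, horizontal axis), with the mean of each day as a bar. The 4 libraries of 3 dpi lie between 4.00 and 4.65, above every library of 1, 2 and 6 dpi.

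Differences between any of the 6 days were called for 21 of the 39 members in edgeR's quasi-likelihood F-test (adjusted p under 0.05, adjusted over all 14030 genes), where 15% of all genes tested were called. By role these were 5 of 5 nucleotide supply genes, 4 of 6 MCM subunits, 3 of 5 licensing genes, 3 of 6 helicase activation genes, 2 of 5 clamp and loader genes, 2 of 3 chromatin genes, 1 of 2 genes of lagging strand joining and 1 of 7 polymerase and primase genes. Without the 3 dpi libraries, an alternative chosen after seeing the data, 8 members were called. The share of all genes called in that fit is not given here, so this count cannot be set against 15%.

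The first step, from 1 to 2 dpi, gave no call. At 2 against 1 dpi 0 of 39 members passed in edgeR, where 0.157% of all genes were called higher, and 0 in DESeq2. At an unadjusted p under 0.05 in edgeR's test there were 5 members, in both directions, and the share of all genes at that threshold is not given here. The median log2 fold change of the members was -0.05, against 0.01 over all genes. Libraries did not overlap for 3 members higher at 2 dpi, *Rrm1*, *Tyms* and *Tk1*, as for 8.05% of all genes. These 3 of 39 are no larger a share than that of all genes. All of them belong to nucleotide supply, whose median log2 fold change was 0.79, while the medians of the other 7 role groups lay between -0.29 and 0.21, a difference between roles that was not tested. *Pole2* and *Rfc3* were lower at 2 dpi without overlap, by -1.92 ± 0.68 and -0.65 ± 0.29 (log2 fold change ± SE), with adjusted p of 0.45 and 0.62. For this direction the share of all genes without overlap was not counted, so these genes do not set the members apart.

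The rise came between 2 and 3 dpi. In edgeR's test 7 of 39 members rose, where 1.82% of all genes were called higher, and the median log2 fold change was 1.19 over the members and 0.04 over all genes. These were *Tyms*, *Pcna*, *Cdc45*, *Fen1*, *Dut*, *Rrm1* and *Orc6*, with log2 fold changes from 0.92 (*Orc6*) to 1.66 (*Tyms*). For 21 members every 3 dpi library was above every 2 dpi library, as for 9.7% of all genes, and 38 of 39 estimates were positive. DESeq2 called 23 members, and a fit to the libraries of 2 and 3 dpi alone called 4. The shares of all genes that these fits called are not given here, so their counts cannot be set against 1.82%. Counts moved with single libraries, to 0 without replicate 2 of 2 dpi, to 1 without replicate 1 of 2 dpi or of 3 dpi, to 3 without replicate 4 of 3 dpi, to 4 without replicate 3 of 1 dpi or of 2 dpi, and to 11 without replicate 2 of 3 dpi or replicate 3 of 4 dpi. None of the 7 calls held in all 17 fits that left out a library, and *Tyms* held in 16. Without replicates 3 and 4 of 3 dpi, the pair with the most leukocyte counts, 7 members were called. Both days have Y-linked counts above *Xist*, but the form of the library names differs between them, as given above.

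At 3 against 1 dpi 13 of 39 members rose, where 4.33% of all genes were called higher, and the median log2 fold change was 1.14, against 0.05 over all genes. Libraries did not overlap for 16 members, as for 11.7% of all genes. The 13 were *Gmnn*, *Cdc45*, *Gins1*, *Gins2*, *Pole*, *Pcna*, *Lig1*, *Rrm1*, *Rrm2*, *Tyms*, *Tk1*, *Dut* and *Chaf1b*, and since none was called at 2 dpi, 3 dpi was the first day called higher than 1 dpi for each of them. The other 26 members were not called higher than 1 dpi on any day tested. Over the 13, a median of 23.7% of the difference in mean log2 CPM between 1 and 3 dpi was present at 2 dpi, from 2.6% for *Chaf1b* to 60.3% for *Tk1*. DESeq2 called 20 members, with its share of all genes again not given. Without replicate 1 or without replicate 3 of 1 dpi 5 were called, and among the libraries in which Y-linked counts exceeded *Xist* 4. Without the 3 dpi pair with the most leukocyte counts 11 were called. The comparisons with 1 dpi share the 3 libraries of that day, and those with 3 dpi share the 4 libraries of 3 dpi.

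**Figure D2:**
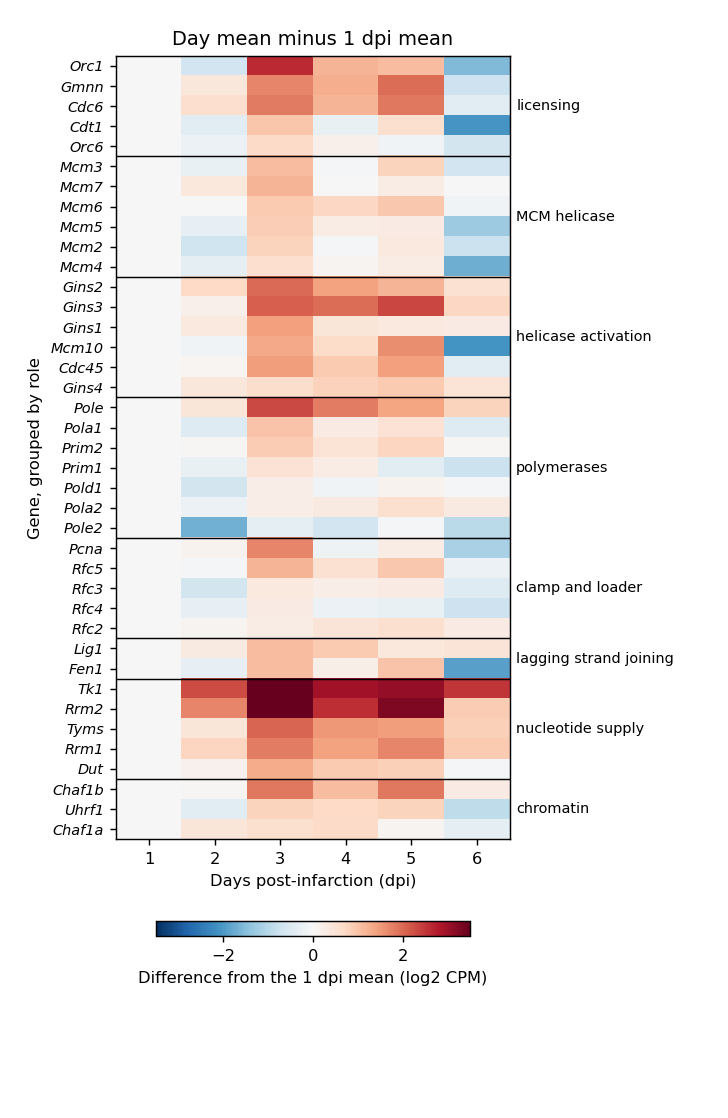
Difference of each day's mean level from the 1 dpi mean (log2 CPM, colour) for the 39 genes (rows, grouped by role) on each day (dpi, columns), where 5 dpi is 1 library. Red is most frequent at 3 dpi, *Tk1* and *Rrm2* have the darkest red, and several licensing and MCM genes are blue at 6 dpi.

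Values in every library are given below for the member with the largest and the one with the smallest log2 fold change at 3 against 1 dpi in each role, and for a few others chosen after their values were seen. They are levels in log2 CPM in the order of replicates. In nucleotide supply 5 of 5 members rose by 3 dpi, where the median change was 2.13 on the log2 scale. *Tk1*, the thymidine kinase of the salvage pathway, had levels of 0.04, 3.59 and 2.67 at 1 dpi, 4.33, 4.22 and 4.58 at 2 dpi and 5.88, 7.02, 5.26 and 5.38 at 3 dpi. It had 5.16, 5.63 and 4.31 at 4 dpi, 5.16 at 5 dpi and 4.89, 4.48 and 4.43 at 6 dpi. All libraries from 2 dpi on lay above all those of 1 dpi, where the lowest held 7 counts, and the rise at 3 dpi was 3.35 ± 0.56 (log2 fold change ± SE, adjusted p = 0.00105). *Rrm1*, the large subunit of ribonucleotide reductase, had 4.19, 4.23 and 4.35 at 1 dpi, 4.92, 4.65 and 5.45 at 2 dpi and 6.36, 6.46, 5.57 and 5.84 at 3 dpi. Levels of 5.83, 5.79 and 5.37 followed at 4 dpi, 5.97 at 5 dpi and 5.31, 5.01 and 5.22 at 6 dpi. *Rrm1* did not overlap between 1 dpi and any later day, and rose by 1.85 ± 0.26 at 3 dpi (adjusted p = 0.000176). *Dut*, which removes dUTP, had 5.06, 5.75 and 5.29 at 1 dpi, 5.29, 5.23 and 6.00 at 2 dpi and 6.97, 6.88, 6.23 and 6.59 at 3 dpi. It had 6.44, 6.58 and 5.88 at 4 dpi, 6.20 at 5 dpi and 5.29, 5.34 and 5.37 at 6 dpi. The 3 dpi libraries were clear of 1, 2 and 6 dpi, by 1.30 ± 0.27 against 1 dpi (adjusted p = 0.00518). *Tyms*, thymidylate synthase, rose by 2.13 ± 0.30 (adjusted p = 0.000181) and *Rrm2*, the small reductase subunit, by 3.31 ± 0.65 (adjusted p = 0.00392), though *Rrm2* had only 4 counts in its lowest 1 dpi library. These 5 were the members of the 13 whose call held in each of the 17 fits that left out a library, and 4 of them, all but *Dut*, held among the libraries in which Y-linked counts exceeded *Xist*.

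By 2 dpi the nucleotide supply genes had covered a median of 41.6% of their difference between 1 and 3 dpi, with 60.3% for *Tk1*, 48.1% for *Rrm2*, 41.6% for *Rrm1*, 21.1% for *Tyms* and 10.6% for *Dut*. *Cdc45* had covered 3.9%, *Pcna* 6.9%, *Pole* 18.5%, *Gmnn* 23.7%, *Gins1* 24.5%, *Lig1* 28.1% and *Gins2* 35.7%. The values overlap between roles, and their difference was not tested. They rest on means of log2 CPM, which a low 1 dpi library pulls down, with 7 counts for *Tk1* and 4 for *Rrm2*. In edgeR's fit *Tk1* changed by 1.66 from 1 to 2 dpi and by 3.35 from 1 to 3 dpi. *Cdc45* and *Pcna* changed by -0.08 and -0.05 from 1 to 2 dpi in that fit, so their small shares are not a rise there.

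Among licensing genes 1 of 5 rose by 3 dpi. It was *Gmnn*, which encodes geminin, the inhibitor of Cdt1 in S and G2 phase. Its levels were 2.61, 3.36 and 2.71 at 1 dpi, 2.57, 3.28 and 4.05 at 2 dpi, 5.21, 4.28, 4.41 and 4.53 at 3 dpi, 4.41, 4.54 and 3.56 at 4 dpi, 4.85 at 5 dpi and 1.64, 2.05 and 2.85 at 6 dpi. The 3 dpi libraries were above all of 1, 2 and 6 dpi, and the log2 fold change was 1.73 ± 0.39 against 1 dpi (adjusted p = 0.0103), which was lost without replicate 1 or 3 of 1 dpi (adjusted p up to 0.0738). *Orc1*, the ATPase subunit of the origin recognition complex, was a low gene with 0 to 96 counts. It had 1, 26 and 37 counts at 1 dpi, 0, 18 and 15 at 2 dpi, 96, 39, 62 and 50 at 3 dpi, 67, 30 and 7 at 4 dpi, 16 at 5 dpi and 0, 1 and 9 at 6 dpi. In log2 CPM 3 dpi was clear of 1 and 2 dpi (1.71 to 3.11 against -2.85 to 0.96), but the change of 2.35 ± 1.01 did not pass (adjusted p = 0.17). *Orc6*, another subunit of that complex, had 4.46, 4.89 and 4.37 at 1 dpi, 4.48, 4.29 and 4.36 at 2 dpi and 5.25, 5.77, 5.00 and 5.00 at 3 dpi. Later levels were 5.12, 4.63 and 4.50 at 4 dpi, 4.45 at 5 dpi and 4.03, 4.01 and 3.75 at 6 dpi. Its libraries at 3 dpi were all above those of 1, 2 and 6 dpi, with a small difference from 1 dpi of 0.70 ± 0.25 (adjusted p = 0.0932). *Cdc6* and *Cdt1*, the loaders of the MCM complex, overlapped between 3 and 1 dpi, with estimates of 1.58 ± 0.72 and 1.06 ± 0.48.

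At 3 against 1 dpi 0 of 6 MCM subunits were called in edgeR, where 4.33% of all genes were called higher. In DESeq2 3 were called (*Mcm3*, *Mcm6* and *Mcm7*), and 5 had an unadjusted p under 0.05 in edgeR's test. The shares of all genes for these other counts are not given here, so the counts do not set the MCM subunits apart. All 6 estimates were positive, from 0.55 to 1.17 with a median of 0.94. *Mcm3* had the largest, with levels of 3.68, 4.36 and 4.01 at 1 dpi, 3.59, 3.55 and 4.14 at 2 dpi and 5.10, 5.88, 4.23 and 5.17 at 3 dpi. It had 4.17, 4.85 and 2.87 at 4 dpi, 4.79 at 5 dpi and 3.19, 3.17 and 3.69 at 6 dpi. One 3 dpi library lay within the range of 1 dpi, and the estimate was 1.17 ± 0.39 (adjusted p = 0.0796). *Mcm4* had the smallest, with 3.15, 4.32 and 4.12 at 1 dpi, 3.69, 3.01 and 3.90 at 2 dpi and 4.43, 4.88, 3.88 and 4.66 at 3 dpi. Levels of 4.29, 4.42 and 3.19 followed at 4 dpi, 4.13 at 5 dpi and 2.28, 2.05 and 2.10 at 6 dpi. It overlapped between 1 and 3 dpi, and its 6 dpi libraries were below every other library of the series.

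Of the genes that activate the helicase, 3 of 6 rose by 3 dpi. *Gins2*, a subunit of the GINS complex, had 3.25, 4.66 and 4.20 at 1 dpi, 4.69, 4.10 and 5.45 at 2 dpi and 5.74, 7.36, 5.34 and 5.66 at 3 dpi. It stood at 5.93, 6.00 and 4.38 at 4 dpi, 5.22 at 5 dpi and 4.54, 4.34 and 4.82 at 6 dpi. All 3 dpi libraries exceeded those of 1 dpi, by 2.12 ± 0.50 (adjusted p = 0.0138), with replicate 2 of 3 dpi the highest, and without replicate 1 or 3 of 1 dpi the call was lost (adjusted p up to 0.0821). *Gins4*, another subunit of the same complex, had 3.95, 4.87 and 4.16 at 1 dpi, 4.62, 4.70 and 4.84 at 2 dpi and 4.78, 4.96, 4.90 and 5.17 at 3 dpi. It had 5.07, 4.98 and 5.36 at 4 dpi, 5.24 at 5 dpi and 5.09, 4.82 and 4.54 at 6 dpi. These libraries overlapped between 1 dpi and 3 dpi, and the estimate was 0.57 ± 0.24 (adjusted p = 0.16). *Cdc45*, which joins MCM and GINS in the active helicase, rose by 1.39 ± 0.38 and *Gins1* by 1.55 ± 0.46, the latter with overlapping libraries and an adjusted p of 0.0487. With 1 library left out at a time, the *Gins1* call held in only 6 of 17 fits (adjusted p up to 0.198 in edgeR's test). The *Cdc45* call held in 13 of 17 (adjusted p up to 0.142). *Gins3* (1.78 ± 0.68) and *Mcm10*, which is needed to open the origin (1.42 ± 0.68), were not called.

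Among polymerases and primase 1 of 7 rose by 3 dpi. *Pole*, the catalytic subunit of the leading strand polymerase epsilon, had -0.38, 0.96 and 1.03 at 1 dpi, 1.25, 1.04 and 0.61 at 2 dpi and 2.84, 4.26, 1.77 and 2.50 at 3 dpi. It had 3.40, 1.62 and 1.99 at 4 dpi, 1.92 at 5 dpi and 2.05, 0.41 and 1.50 at 6 dpi. The 3 dpi libraries were clear of 1 and 2 dpi, with a rise of 2.53 ± 0.65 over 1 dpi (adjusted p = 0.0219), which was lost without replicate 2 of 3 dpi or without any 1 library of 1 dpi (adjusted p up to 0.099). *Pole2*, an accessory subunit of the same polymerase, had 2.02, 1.43 and 0.73 at 1 dpi, 0.07, -0.58 and -0.37 at 2 dpi and 1.53, 1.75, 0.33 and 0.70 at 3 dpi. It had 0.82, 1.07 and 0.27 at 4 dpi, 1.34 at 5 dpi and -0.13, 0.50 and 0.99 at 6 dpi. *Pole2* was lowest at 2 dpi, overlapped between 3 and 1 dpi (-0.30 ± 0.61) and held 10 to 62 counts. *Pola1*, *Pola2*, *Prim1* and *Prim2* of the primase complex and *Pold1* of the lagging strand polymerase had estimates from 0.24 to 1.03, none of them called.

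For the clamp and its loader 1 of 5 rose by 3 dpi. *Pcna*, the sliding clamp, had 6.02, 7.53 and 6.08 at 1 dpi, 6.97, 6.37 and 6.62 at 2 dpi and 7.96, 8.29, 8.14 and 8.57 at 3 dpi. It had 6.24, 6.19 and 6.64 at 4 dpi, 6.80 at 5 dpi and 5.87, 4.28 and 6.09 at 6 dpi. All 3 dpi libraries were above all others of the series. *Pcna* rose by 1.54 ± 0.39 over 1 dpi (adjusted p = 0.0218) and was the 1 member called lower from 3 to 4 dpi. The first call was lost without replicate 1 or 3 of 1 dpi or replicate 4 of 3 dpi (adjusted p up to 0.135). The processed pseudogene *Pcna-ps2* held 0.764 to 0.931 counts for each count of *Pcna* in the same library, so that reads of the pair may be split or shared. *Pcna-ps2* changed by 1.67 ± 0.38 and the sum of both by 1.60 ± 0.39 over the same days. *Rfc2*, a small subunit of the clamp loader, had 4.60, 5.12 and 4.40 at 1 dpi, 4.84, 4.64 and 4.89 at 2 dpi and 5.24, 4.79, 4.72 and 5.14 at 3 dpi. It had 5.32, 5.23 and 4.94 at 4 dpi, 5.26 at 5 dpi and 5.34, 5.07 and 4.54 at 6 dpi. *Rfc2* overlapped between 1 and 3 dpi, with an estimate of 0.25 ± 0.25 (adjusted p = 0.60), and *Rfc3*, *Rfc4* and *Rfc5*, with 0.34, 0.30 and 1.15, were not called.

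In the joining of the lagging strand *Lig1*, the DNA ligase of the fork, rose and *Fen1*, the flap nuclease, did not pass at 3 against 1 dpi. *Lig1* had 3.89, 3.95 and 4.18 at 1 dpi, 4.18, 4.03 and 4.73 at 2 dpi and 5.11, 5.89, 4.58 and 4.80 at 3 dpi. It had 5.19, 5.05 and 4.50 at 4 dpi, 4.38 at 5 dpi and 4.55, 4.95 and 3.87 at 6 dpi. The 3 dpi libraries exceeded those of 1 dpi by 1.18 ± 0.33 (adjusted p = 0.0339), which was lost without replicate 1 or 2 of 3 dpi or any 1 library of 1 dpi (adjusted p up to 0.118). *Fen1* had 3.25, 3.58 and 2.76 at 1 dpi, 2.84, 3.20 and 2.70 at 2 dpi and 4.77, 3.54, 4.17 and 4.66 at 3 dpi. It had 3.64, 3.38 and 3.19 at 4 dpi, 4.18 at 5 dpi and 0.31, 1.43 and 2.15 at 6 dpi. One 3 dpi library was below the highest of 1 dpi, with an estimate of 1.14 ± 0.38 (adjusted p = 0.0732), and the 6 dpi libraries were the lowest of the series.

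Of the chromatin genes 1 of 3 rose by 3 dpi. *Chaf1b*, a subunit of the histone chaperone CAF-1, had 1.67, 2.05 and 1.69 at 1 dpi, 1.49, 1.25 and 2.81 at 2 dpi and 3.92, 3.36, 3.57 and 3.70 at 3 dpi. It had 3.84, 3.62 and 1.19 at 4 dpi, 3.66 at 5 dpi and 2.24, 2.32 and 1.72 at 6 dpi. At 3 dpi all libraries were above those of 1, 2 and 6 dpi, by 1.87 ± 0.50 against 1 dpi (adjusted p = 0.0291), lost without any 1 library of 1 dpi or without replicate 1 or 4 of 3 dpi (adjusted p up to 0.121). *Chaf1a*, the large subunit of CAF-1, had 2.07, 3.00 and 0.85 at 1 dpi, 1.75, 2.10 and 3.33 at 2 dpi and 2.91, 2.19, 2.22 and 2.75 at 3 dpi. It had 3.19, 2.46 and 2.31 at 4 dpi, 2.07 at 5 dpi and 2.05, 0.67 and 2.15 at 6 dpi. *Chaf1a* overlapped between 3 and 1 dpi (0.33 ± 0.52), as did *Uhrf1*, which recruits the maintenance DNA methyltransferase (0.80 ± 0.36).

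**Figure D3:**
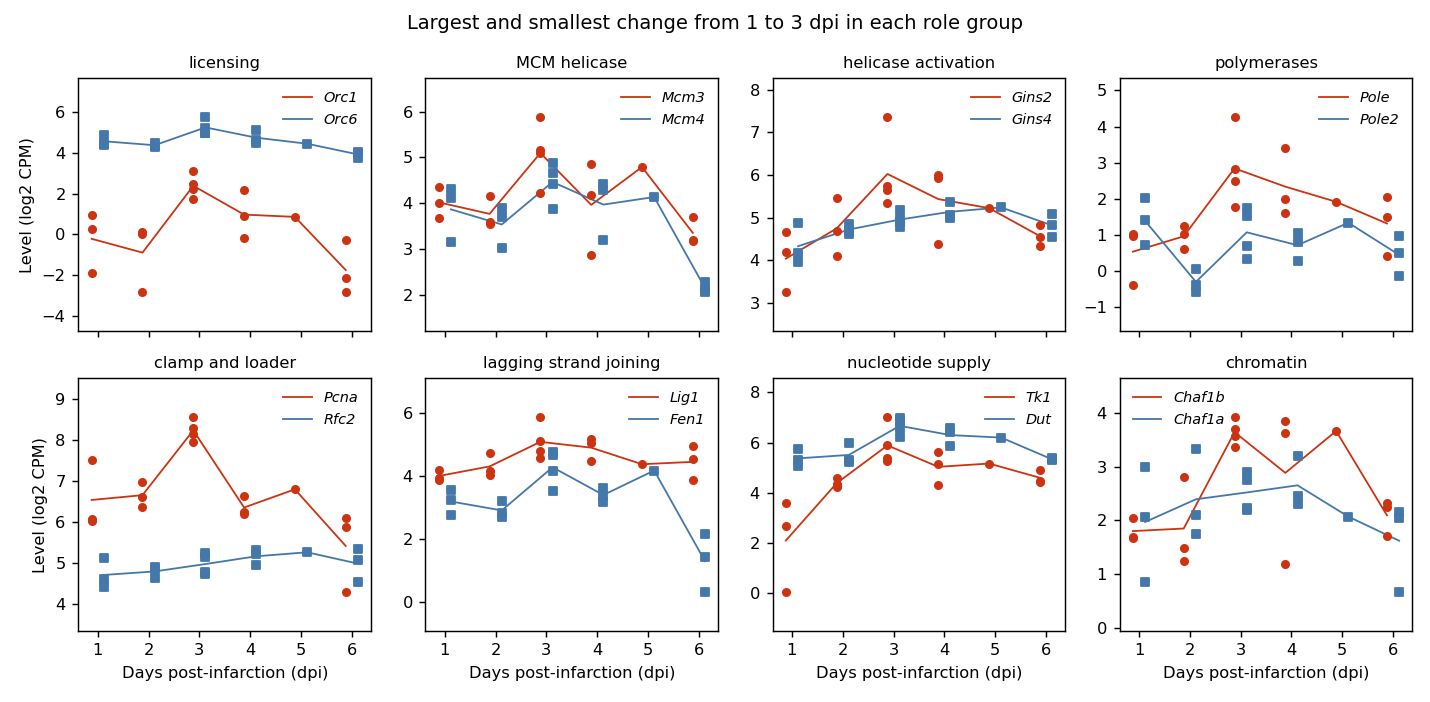
Levels (log2 CPM, vertical axes) in each library (points) by day (dpi, horizontal axes) of the member with the largest (red) and the smallest (blue) change from 1 to 3 dpi in each of 8 role groups, with lines through the daily means. *Pcna* at 3 dpi (7.96 to 8.57) is above all other days, and *Fen1* and *Mcm4* are lowest at 6 dpi.

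After 3 dpi the members went down in steps that single days rarely resolved. From 3 to 4 dpi only *Pcna* was called lower, by -1.89 ± 0.40 (log2 fold change ± SE, adjusted p = 0.0138 in edgeR's test), where 1.08% of all genes were. It was also the 1 member without overlap in that direction, as were 8.06% of all genes. Only 4 of the 39 estimates were positive. The median log2 fold change of the members was -0.49, against -0.03 over all genes. The *Pcna* call was lost without replicate 1 or 2 of 4 dpi (adjusted p up to 0.0911), the number of members called went to 0 without replicate 2 of 4 dpi and to 2 without replicate 2 of 3 dpi, and without the 3 dpi pair with the most leukocyte counts no member was called. From 4 to 6 dpi *Gmnn*, *Mcm4*, *Mcm5* and *Fen1* fell, 4 of 39 where 0.278% of all genes were called lower, and the median was -0.85, against -0.02 over all genes. Their log2 fold changes were -2.0 ± 0.42, -1.95 ± 0.38, -1.58 ± 0.35 and -2.0 ± 0.42, with adjusted p from 0.0369 to 0.0492. Libraries did not overlap for 16 members lower at 6 dpi, as for 10.2% of all genes. These 4 calls were fragile. The count was 0 without replicate 1 or 2 of 4 dpi or replicate 1 or 2 of 6 dpi, 1 without replicate 2 or 3 of 1 dpi, replicate 2 of 2 dpi or replicate 3 or 4 of 3 dpi, and 2 without replicate 1 of 1 dpi, replicate 1 or 3 of 2 dpi or replicate 1 of 3 dpi. It was 9 without replicate 2 of 3 dpi or replicate 3 of 6 dpi. On only the libraries of these days, and on those in which *Xist* exceeded the Y-linked counts, 0 were called, and without the 3 dpi pair with the most leukocyte counts 1 was. Cardiomyocyte markers were higher at 6 dpi than at 4 dpi, as given above, and their part in these values was not tested.

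Across the whole decline, at 6 against 3 dpi, 27 of 39 members fell, where 10.3% of all genes were called lower, and libraries did not overlap for 27, as for 13.5% of all genes. The median log2 fold change was -1.39, against -0.03 over all genes. Every 6 dpi library has *Xist* above the Y-linked counts and every 3 dpi library the reverse, and the form of the library names differs too. The decline therefore cannot be told apart from these differences between libraries, as given above, and the same holds from 3 to 4 dpi. By role 5 of 5 licensing genes and 6 of 6 MCM subunits fell, with 3 of 6 helicase activation genes, 2 of 7 polymerase and primase genes, 4 of 5 clamp and loader genes, 1 of 2 genes of lagging strand joining, 4 of 5 nucleotide supply genes and 2 of 3 chromatin genes. Of the MCM subunits 6 of 6 were thus called in the decline and, in edgeR, 0 of 6 in the rise from 1 dpi (3 in DESeq2). Both comparisons share the 3 dpi libraries. All 6 estimates in the rise were positive, from 0.55 to 1.17, so these counts do not set a fall against no rise. Calls were also rarer in the rise, where 4.33% of all genes were called higher. In simulated data for 3 against 1 dpi, 10.2% of the genes changed by 1 on the log2 scale were called. *Fen1* (-2.95 ± 0.42, adjusted p = 0.000127), *Pcna* (-2.65 ± 0.41, adjusted p = 0.000279) and *Mcm4* (-2.39 ± 0.37, adjusted p = 0.00028) had the smallest adjusted p. The estimates of *Orc1* (-4.36 ± 1.18) and *Mcm10* (-3.46 ± 0.78) were larger, but their 6 dpi libraries held 0 to 11 counts. *Cdt1* also had a larger estimate (-3.03 ± 0.54, adjusted p = 0.000804), with at least 12 counts in every library. *Gins4*, *Pola2* and *Rfc2* had estimates of -0.13, 0.09 and 0.03 and were not called. Of the 27 calls 15 held in each of the 17 fits that left out a library. Without replicate 1 of 6 dpi 17 were called and without replicate 2 of 6 dpi 15, and without the 3 dpi pair with the most leukocyte counts 24.

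**Figure D4:**
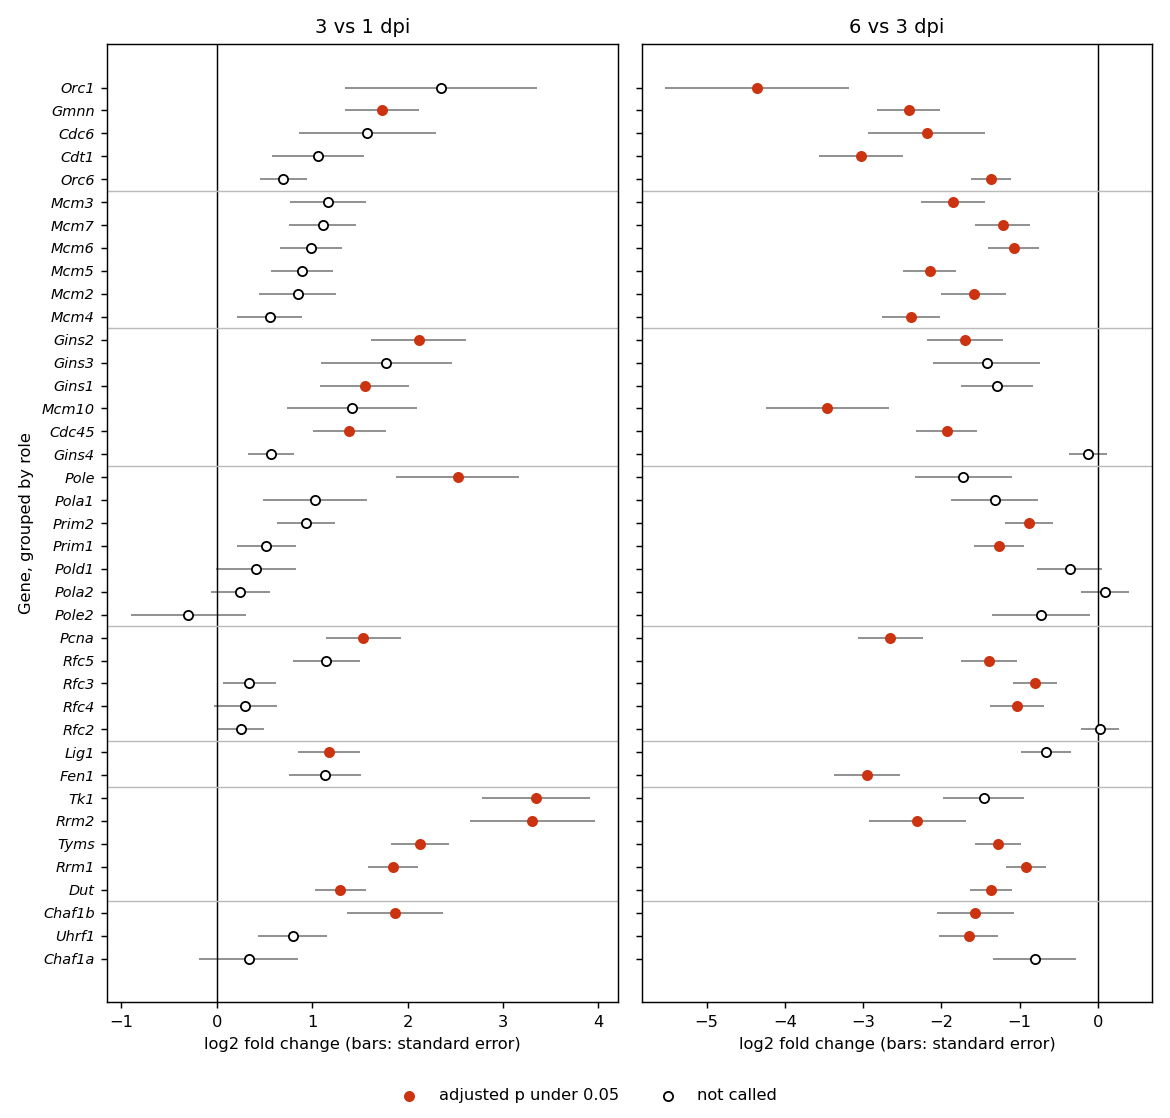
Log2 fold change (horizontal axes, bars: standard error) of the 39 genes, grouped by role, at 3 against 1 dpi (left) and 6 against 3 dpi (right), with filled points for an adjusted p under 0.05. At left 13 genes are called, all higher and 5 of them for nucleotide supply, and at right 27 are called, all lower.

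Between 1 and 6 dpi, before and after the peak, 6 of 39 members were called, in both directions. At 6 against 1 dpi 2 members were higher, *Tk1* (1.89 ± 0.55, adjusted p = 0.0316) and *Rrm1* (0.93 ± 0.27, adjusted p = 0.0283), where 6.91% of all genes were called higher. In the same comparison 4 members were lower, where 5.21% of all genes were, namely *Mcm4* (-1.84 ± 0.38, adjusted p = 0.00397), *Fen1* (-1.81 ± 0.42, adjusted p = 0.0085), *Cdt1* (-1.97 ± 0.54, adjusted p = 0.0231) and *Mcm5* (-1.26 ± 0.35, adjusted p = 0.0239). The share of members called higher was near that of all genes, and the 4 called lower are too few to set the members apart. *Cdt1* had levels of 3.38, 3.81 and 2.53 at 1 dpi, 4.86, 2.90, 4.37 and 4.71 at 3 dpi and 1.05, 0.21 and 2.25 at 6 dpi. Its 6 dpi libraries were below every 1 dpi library, as were those of *Mcm5*, with 3.38, 3.16 and 3.93 against 4.53, 5.12 and 4.60. The calls of *Mcm4* and *Fen1* held in all 17 fits that left out a library, and those of the other 4 members did not. In number, 3 were called without replicate 1 or 2 of 1 dpi and 2 without replicate 1 or 2 of 6 dpi. Among the libraries in which *Xist* exceeded the Y-linked counts, which leave 1 library at 1 dpi whose spread is assumed to be like that of the other days, *Tk1* alone was called. At 4 against 1 dpi *Rrm1* (1.43 ± 0.27), *Tyms* (1.55 ± 0.31), *Tk1* (2.41 ± 0.56) and *Rrm2* (2.55 ± 0.66) were higher, 4 of 39 where 2.43% of all genes were, and none was lower. Without replicate 1 or 3 of 1 dpi, or replicate 1 or 2 of 4 dpi, 2 were called. Among the same *Xist* libraries, again with 1 library at 1 dpi, *Tk1* alone was called.

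The other genes of the pathway, 100 genes in 6 lists that were all tested, were counted in the same comparisons. At 3 against 1 dpi 13 of 100 rose, where 4.33% of all genes were called higher, and 1 fell. Their median change was 0.31 on the log2 scale. Among 27 other origin and fork factors 5 rose, led by *Top2a*, topoisomerase II alpha (3.39 ± 0.39, adjusted p = 1.449e-05), *Dscc1* (2.78 ± 0.65) and *Chtf18* (2.56 ± 0.67), both of an alternative clamp loader. In other nucleotide synthesis *Dck*, deoxycytidine kinase (1.68 ± 0.39), and *Dtymk*, thymidylate kinase (0.83 ± 0.23), rose and *Nme1*, a nucleoside diphosphate kinase, fell by -1.07 ± 0.25. *Asf1b*, a histone chaperone (2.20 ± 0.52), and *Hells*, a chromatin remodeller (1.90 ± 0.51), rose among 11 genes of chromatin assembly. In the E2F family, with its retinoblastoma and DP partners, *E2f7* (2.83 ± 0.73) and *Tfdp2* (1.81 ± 0.31) rose. *Ccna2*, cyclin A2 (3.69 ± 0.50), and *Ccne1*, cyclin E1 (2.46 ± 0.60), rose among 14 cyclins, kinases and inhibitors of S phase entry. From 2 to 3 dpi 10 of 100 rose, where 1.82% of all genes did, and at 6 against 3 dpi 43 fell and none rose, where 10.3% of all genes fell. From 3 to 4 dpi 2 fell, where 1.08% of all genes did, and from 4 to 6 dpi 1 fell, where 0.278% did, counts too small to set the list apart. At 6 against 1 dpi 4 were higher, where 6.91% of all genes were, and 12 were lower, where 5.21% were. Of those 12, 10 belong to other nucleotide synthesis, among them *Ppat* (-2.10 ± 0.52), the first enzyme of purine synthesis, *Adsl* (-1.41 ± 0.28) of the same pathway, *Umps* (-1.79 ± 0.34) of pyrimidine synthesis and *Shmt1* (-2.34 ± 0.74) of folate metabolism. These 4 were named after their values were seen. *Tk1* and *Rrm1* were called higher in the same comparison.

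Annotated exons of genes on the opposite strand overlap 12 of the members, *Orc6*, *Mcm7*, *Cdc45*, *Gins2*, *Pole*, *Rfc2*, *Rfc4*, *Rfc5*, *Fen1*, *Lig1*, *Tk1* and *Chaf1a*. Whether the counting used strand is not given in the sources used here, so part of the counts of these members could come from the neighbour. Near *Tk1* the neighbour *Afmid* held at most 12 counts in any library, while near *Fen1* the neighbour *Tmem258* held up to 3879.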

How the data were processed

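Poly-A RNA of the sorted CFs was read at the 3′ ends of transcripts by MARS-seq. The authors used bcl2fastq (1.2.4), STAR on mm10 and featureCounts with an Ensembl annotation, and deposited raw counts per gene, 1 column per library and not normalized. Collapsing of molecular identifiers is not given in the sources used here, so floors of 3 counts cover counting error only.

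All 17 libraries, with totals from 8021815 to 22029938, were fitted in edgeR (4.0.16, R 4.3.3) by the quasi-likelihood F-test after TMM, with 6 days as levels. The filter kept 14030 genes (10 counts in 3 libraries or more), over which p-values were adjusted by Benjamini-Hochberg (threshold 0.05). The study's methods name DESeq2, here an alternative (1.42.0). The lone 5 dpi library, whose labels disagree on its replicate number, entered the fit but no comparison. Log2 CPM used a prior count of 2, and SE is the model's. A member's first day called was the first of 2, 3, 4 and 6 dpi higher than 1 dpi, and its peak the highest daily mean among days with 3 or more libraries.

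The members, role groups, pathway lists and promoter words were chosen with earlier results of these data known. Named with all values were the largest and smallest change at 3 against 1 dpi in each role, and up to 3 called genes per pathway list were named. The scripts were tested on simulated data. Alternatives were DESeq2, other size factors, filters and spreads, the replicate block, subsets of libraries, and each library left out. Chosen after seeing the data were fits without the 3 dpi libraries or their pair highest in leukocyte markers, those on *Xist* libraries, and the sum of *Pcna* with its pseudogene.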

Additional observations from a re-analysis of the deposited data

Results flagged for a closer look

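At 3 dpi, where 4 libraries allow the check, a pair of 40 measures (the 39 members and their mean) had 1 library far from the other 3 by Dixon's ratio of gap to range, where chance flags about 1 in 20 and so about 2. The level of *Pola2*, a subunit of the primase complex, was 3.269 log2 CPM in replicate 2 and 3.670 to 3.741 in the others. The level of *Rfc5*, of the clamp loader, was 3.922 log2 CPM in replicate 3 and 4.531 to 4.612 in the others.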

How the results depend on the processing

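Counts are members called, by edgeR's test unless DESeq2 is named, and where they moved the cause was not tested unless the setting has fewer libraries. Shares of all genes called under these alternatives are not given here. With 1 library left out at a time they ranged from 15 to 26 over the whole course (21 with all), 0 to 0 at 2 against 1 dpi (0), 0 to 11 at 3 against 2 (7), 0 to 2 at 4 against 3 (1), 0 to 9 at 6 against 4 (4), 5 to 16 at 3 against 1 (13), 2 to 6 at 4 against 1 (4), 2 to 9 at 6 against 1 (6) and 15 to 28 at 6 against 3 dpi (27). DESeq2 gave 23 at 3 against 2, 9 at 6 against 4 and 20 at 3 against 1 dpi, and 20 members first called at 3 dpi. With every gene of at least 1 count the fit called 1 member at 2 against 1, 22 at 3 against 2, 5 at 4 against 3, 12 at 6 against 4, 21 at 3 against 1 and 8 at 4 against 1 dpi. With at least 10 counts in every library 2 were called at 4 against 1 dpi. Only the libraries of the days compared gave 4 at 3 against 2 and 0 at 6 against 4 dpi. Libraries with *Xist* below Y-linked counts gave 4 at 3 against 1 dpi, and those with *Xist* above them gave 0 at 6 against 4 and 1 each at 4 against 1 and 6 against 1 dpi. Without the 3 dpi libraries 8 were called over the whole course. Without the 3 dpi pair highest in leukocyte markers 0 were called at 4 against 3 and 1 at 6 against 4 dpi.

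The replicate number as a block gave 13 over the whole course, 1 at 3 against 2, 0 at 6 against 4 and 8 at 3 against 1 dpi. Deviations from the day means correlated by 0.011 on average in 30 pairs of libraries with the same number and by -0.005 in 72 with different numbers. The labels do not say what the number stands for, and whether libraries with the same number share more than that was not tested.

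The peak at 3 dpi held for 28 to 35 members under the alternatives run. Over single members, comparisons and alternatives, 7827 of 8402 results stayed on the same side of the threshold with the same sign, 163 passed it newly, 296 no longer passed, and 116 that were not called in either fit changed sign. Depth limits *Orc1*, *Gins3*, *Cdc6*, *Mcm10*, *Pole*, *Rrm2* and *Tk1*, with under 10 counts in some libraries.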
